A study of Mus musculus with 10 samples.

Results

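Acinar cells of the pancreas make and package the digestive enzymes, and a small set of transcription factors keeps them in that state. The 9 genes followed here, Ptf1a, Rbpjl, Rbpj, Nr5a2, Bhlha15, Gata4, Gata6, Foxa2 and Foxa3, encode such factors and were picked by name, 9 of 24062 genes counted. Ptf1a binds DNA in the trimeric PTF1 complex together with an E protein and an RBPJ-type protein. Rbpj, which also serves Notch signalling in nearly every cell type, fills that place in the embryo, and its pancreas-restricted relative Rbpjl replaces it as acinar cells mature. Bhlha15, also called MIST1, organizes the secretory apparatus, and Nr5a2, the nuclear receptor LRH-1, works with PTF1 on enzyme genes. Gata4, Gata6, Foxa2 and Foxa3 act earlier in endoderm and pancreas development and remain active in several epithelial cell types.

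RNA was sequenced from the whole pancreas of 5 WT and 5 KSR23 mice at P5 (postnatal day 5), all C57BL/6, with 1 library per mouse. KSR23 mice carry the R23 cassette, which encodes both IL-23 subunits and sits in the ROSA26 locus behind a floxed STOP signal, together with Cre under the K14 promoter, so that keratinocytes make IL-23 and the pancreas is not itself the targeted tissue. The WT mice were described as control littermates, and whether they carried Cre or the cassette alone is not given in the sources used here. Nothing in the labels ties the mice to litters, so p-values cover the spread between these 10 libraries. Il23a, a subunit of the transgene, was at 0.179 ± 0.102 CPM (gene counts divided by the scaled library total) in WT mice and at 1.07 ± 0.138 CPM in KSR23 mice (SD, n = 5 each), from 1 to 48 counts, and the groups did not overlap. Il12b, the gene of the other subunit, overlapped between the groups, at 0 to 0.240 CPM in WT mice and 0.0888 to 0.327 CPM in KSR23 mice, from 0 to 13 counts.

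The WT libraries held 26830235 to 33189132 gene counts and the KSR23 libraries 16715976 to 57784136. KSR23 replicate 3 was the smallest library and KSR23 replicate 5 the largest. The least expressed of the 9 factors in any library was Nr5a2, with 172 counts in KSR23 replicate 3, so none was near the limit of detection, and all 9 passed the filter on low counts. Alignments that were not unique made up 49.6% to 53.7% of all tallied alignments in WT mice and 38.5% to 42.5% in KSR23 mice, and these went to no gene. All 75-base windows of the Rbpjl, Bhlha15, Nr5a2, Gata4, Foxa2 and Foxa3 transcripts occur in no other annotated gene (100%), and for Gata6, which overlaps 1010001N08Rik on the opposite strand, 99.4% do so. For Rbpj this share was 78.9%, because 1139 windows also lie in the processed pseudogene Rbpj-ps3, so Rbpj was counted on part of its reads in both groups. In Ptf1a, 467 windows lie in the antisense gene Ptf1aos at the same place. The library kit does not keep strand, so reads of Ptf1a and Ptf1aos cannot be told apart there, and Ptf1aos was not analysed here.

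The stretches before the start sites of the genes that fell are shown for Ptf1a, Rbpjl and Bhlha15, since PTF1 is known to act on the genes of its own network. They are RefSeq sequences of build GRCm38.p6, plus strand, and end where the first annotated transcript begins. They cover chr2:19445413-19445662 for Ptf1a, chr2:164402944-164403140 for Rbpjl and chr5:144190036-144190285 for Bhlha15. Capitals mark each CANNTG (the E-box, bound by basic helix-loop-helix proteins such as PTF1A and MIST1) and each TGGGAA (the core bound by RBPJ and RBPJL), searched on both strands.
Ptf1a: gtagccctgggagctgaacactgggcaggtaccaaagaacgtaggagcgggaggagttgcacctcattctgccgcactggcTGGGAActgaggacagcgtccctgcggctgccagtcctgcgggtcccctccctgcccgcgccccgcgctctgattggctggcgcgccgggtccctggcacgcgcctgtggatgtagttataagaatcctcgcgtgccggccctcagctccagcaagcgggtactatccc
Rbpjl: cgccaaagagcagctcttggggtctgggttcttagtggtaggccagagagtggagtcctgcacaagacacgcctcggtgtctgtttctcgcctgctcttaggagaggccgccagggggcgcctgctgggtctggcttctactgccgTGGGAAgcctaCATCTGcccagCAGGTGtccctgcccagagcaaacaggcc
Bhlha15: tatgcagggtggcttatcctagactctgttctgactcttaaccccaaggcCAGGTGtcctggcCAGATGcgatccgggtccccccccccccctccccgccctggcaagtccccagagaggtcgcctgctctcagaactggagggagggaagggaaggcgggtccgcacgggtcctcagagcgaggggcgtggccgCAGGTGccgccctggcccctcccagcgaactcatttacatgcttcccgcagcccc

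The Rbpjl stretch holds a TGGGAA at -104, an E-box at -93 and a further E-box at -82, counted from the RefSeq start site at 164403194. A TGGGAA and a CANNTG whose first bases lie 10 to 12 bases apart occur in 1.09% of 32851 promoters of 250 bases before and 50 bases after a start site, whereas CANNTG alone occurs in 72.3% and TGGGAA alone in 25.6%. This spacing was set after the Rbpjl sequence had been seen. Among the 7 factor genes with an entry in the promoter table, Rbpjl was the gene with such a pair. The Bhlha15 stretch holds 3 E-boxes and no TGGGAA, and the Ptf1a stretch holds 1 TGGGAA and no E-box. An AGATAA on either strand, a form of the GATA site, lies at -31 in Rbpjl, past the end of the printed stretch. It also lies at -183 in Foxa2 and at -217 and -200 in Nr5a2, and AGATAA occurs in 11.2% of all promoters. No form of TTCNNNGAA, the STAT site, was found in any of the 11 promoters of the 7 genes, and it occurs in 8.30% of all promoters. A match of letters is not a bound site, and elements further away, such as the known upstream enhancer of Ptf1a, lie outside these windows.

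Per kilobase of exon, Rbpjl was the most abundant of the 9 factors, with 175 ± 14.2 CPM per kb in WT mice (SD, n = 5). Bhlha15 followed with 35.8 ± 3.14 CPM per kb. Gata4 with 19.8 ± 1.45, Ptf1a with 18.5 ± 2.72 and Foxa3 with 14.5 ± 0.871 CPM per kb came next, and neighbours in this order overlapped between mice. Foxa2 was at 8.29 ± 0.675 and Gata6 at 6.85 ± 0.543 CPM per kb, without overlap between them. Nr5a2 at 1.69 ± 0.173 and Rbpj at 1.66 ± 0.229 CPM per kb did not differ beyond their spread, and the value for Rbpj lacks the reads shared with its pseudogene. In KSR23 mice Rbpjl and Bhlha15 kept the top places with 132 ± 13.4 and 26.6 ± 3.93 CPM per kb. Foxa3 stood above Ptf1a there, with 17.7 ± 3.68 against 13.0 ± 1.96 CPM per kb, and the ranges of these genes overlapped.

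**Figure D1:**
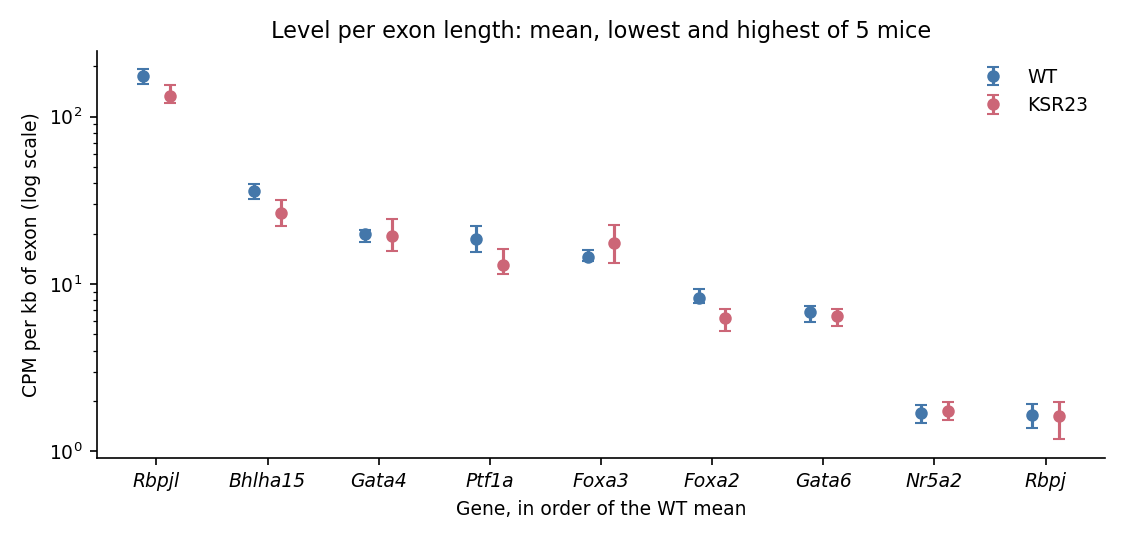
Levels of the 9 factor genes in CPM per kb of exon on a log axis, in the order of the WT mean. Points are means and bars run from the lowest to the highest of 5 mice. Rbpjl stands at 175 CPM per kb in WT mice, and Nr5a2 and Rbpj stand at 1.69 and 1.66.

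Ptf1a, Rbpjl, Bhlha15 and Foxa2 were lower in KSR23 mice, with fitted changes of -29.5% to -24.4%, and none of the 9 factors was called higher. Calls were made at an adjusted p under 0.05 from the quasi-likelihood F test of edgeR, adjusted after Benjamini and Hochberg over 13882 genes. Of the 9 factors, 4 were called lower, where 14.8% of all genes tested were called lower, 16.2% higher and 31.0% in either direction. The median log2 FC of the 9 factors was -0.10, against -0.00562 for all genes tested. For 3 of the 9, Rbpjl, Bhlha15 and Foxa2, the highest KSR23 mouse lay below the lowest WT mouse, where this held for 8.74% of all genes, and groups did not overlap in either direction for 19.4%. The same 4 genes were called lower under each of 18 other settings, which changed the scaling, the test, the filter or the mice used. All 18 scaled libraries by their gene counts, so each fall is relative to the other genes counted. Alignments that were not unique, 49.6% to 53.7% in WT and 38.5% to 42.5% in KSR23 mice, entered none of these scalings. Their part in the falls was not tested. The pancreas was sequenced whole, so fewer acinar cells and less RNA per acinar cell cannot be told apart.

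**Figure D2:**
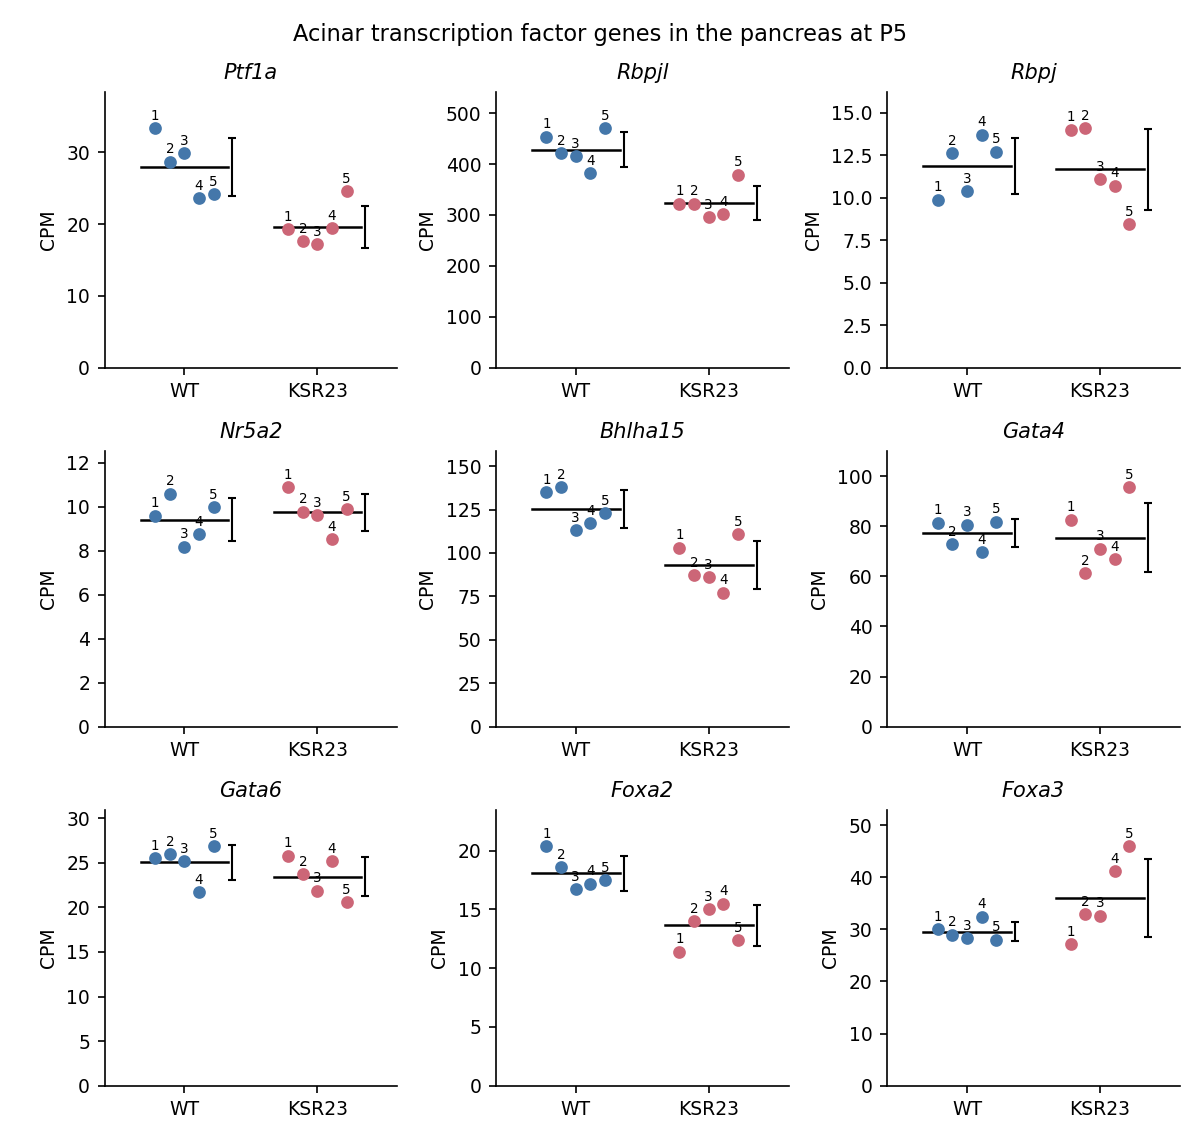
CPM of each of the 9 factor genes in each mouse, with axes from 0. Points are mice labelled by replicate number, horizontal lines are group means and bars are the SD of 5 mice. Rbpjl, Bhlha15 and Foxa2 do not overlap between the groups, and Ptf1a overlaps through KSR23 replicate 5 at 24.6 CPM.

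Among the genes of the PTF1 complex, Ptf1a and Rbpjl fell and Rbpj did not pass the test. Ptf1a (chr2, 19445663 to 19447501, GRCm38, 2 exons) was at 33.4, 28.7, 29.9, 23.6 and 24.2 CPM in WT replicates 1 to 5 and at 19.3, 17.6, 17.2, 19.4 and 24.6 CPM in KSR23 replicates 1 to 5. KSR23 replicates 1 to 4 were below all WT mice, and KSR23 replicate 5 reached the level of the lowest WT mice. The fitted log2 FC (KSR23 over WT) of Ptf1a was -0.50 (standard error 0.111, edgeR, adjusted p = 0.00218), and it was -0.60 without KSR23 replicate 5.

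Rbpjl (chr2, 164403141 to 164415448, 12 exons) was at 454, 421, 415, 382 and 471 CPM in the WT mice and at 322, 322, 296, 301 and 379 CPM in the KSR23 mice. The groups were separated by a narrow gap, between KSR23 replicate 5 and WT replicate 4 (two-sided exact permutation test of log2 CPM, p = 0.00794, the smallest that 5 mice against 5 allow). This unadjusted p restates the lack of overlap, which held for 19.4% of all genes tested. For the factors whose groups overlapped, the same permutation test gave p from 0.0238 for Ptf1a to 0.833 for Rbpj. The log2 FC was -0.40 (standard error 0.0771, edgeR, adjusted p = 0.000673), the smallest standard error among the 9 genes, on 5301 to 21210 counts per library. An exon stretch of 71 bases overlaps Matn4 on the opposite strand.

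Rbpj (chr5, 53466152 to 53657362) was at 9.88, 12.6, 10.4, 13.7 and 12.7 CPM in WT mice and at 14.0, 14.1, 11.1, 10.7 and 8.44 CPM in KSR23 mice. KSR23 mice lay on both sides of the WT range, with KSR23 replicate 5 the lowest of the 10. Its log2 FC was -0.02, with a 95% interval from -0.31 to 0.27 (edgeR, adjusted p = 0.918), so a fall of the size seen for Ptf1a lies outside the interval.

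Of the genes that act in mature acinar cells beside PTF1, Bhlha15 fell and Nr5a2 did not pass the test. Bhlha15 (chr5, 144190286 to 144194441, 2 exons) was at 135, 138, 113, 117 and 123 CPM in WT mice and at 103, 87.4, 86.2, 77.1 and 111 CPM in KSR23 mice. The lowest WT mouse and the highest KSR23 mouse, replicate 5, differed by less than the SD of either group, but no mice crossed (two-sided exact permutation test, p = 0.00794). The log2 FC was -0.43 (standard error 0.0918, edgeR, adjusted p = 0.00185). Nr5a2 (chr1, 136842571 to 136960448) was at 9.60, 10.6, 8.18, 8.74 and 9.98 CPM in WT mice and at 10.9, 9.77, 9.61, 8.53 and 9.90 CPM in KSR23 mice. The groups overlapped throughout, and the log2 FC of 0.05 had a 95% interval from -0.17 to 0.28 (edgeR, adjusted p = 0.752).

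Neither GATA factor passed the test. Gata4 (chr14, 63198922 to 63271692) was at 69.6 to 81.8 CPM in WT mice and at 82.6, 61.2, 71.0, 66.9 and 95.7 CPM in KSR23 replicates 1 to 5. Its mean barely moved, at 77.3 and 75.5 CPM, while the SD was 5.63 CPM in the WT group and 13.8 CPM in the KSR23 group, and this difference in spread was not tested. The log2 FC was -0.03 with a 95% interval from -0.24 to 0.18 (edgeR, adjusted p = 0.837). Gata6 (chr18, 11052064 to 11085635) was at 21.7 to 26.9 CPM in WT mice and at 20.6 to 25.8 CPM in KSR23 mice. Its log2 FC was -0.10 with a 95% interval from -0.27 to 0.08 (adjusted p = 0.425).

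The FOXA genes, pioneer factors that open chromatin in endoderm-derived tissue, were called lower in the case of Foxa2 and not called in the case of Foxa3. Foxa2 (chr2, 148042877 to 148046969, 3 exons) was at 20.4, 18.6, 16.7, 17.2 and 17.5 CPM in WT mice and at 11.4, 14.0, 15.0, 15.5 and 12.4 CPM in KSR23 mice. Every KSR23 value lay below the WT range (two-sided exact permutation test, p = 0.00794), and KSR23 replicate 5 was among the lowest here. The log2 FC was -0.41 (standard error 0.100, edgeR, adjusted p = 0.00479). Foxa3 (chr7, 19013284 to 19023538) was at 30.0, 29.0, 28.3, 32.4 and 28.0 CPM in WT mice and at 27.2, 32.9, 32.6, 41.1 and 46.0 CPM in KSR23 mice. KSR23 replicates 4 and 5 were well above the WT range, and KSR23 replicate 1 was below it. The log2 FC of Foxa3 was 0.29 (unadjusted 95% interval from 0.05 to 0.52, standard error 0.112) and missed the threshold (edgeR, adjusted p = 0.0607). It passed with libraries scaled by their total alone (0.37, adjusted p = 0.00986) and without KSR23 replicate 1 (0.37, adjusted p = 0.0115) or replicate 3 (0.32, adjusted p = 0.045), and it was 0.18 without KSR23 replicate 5 (adjusted p = 0.201).

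Foxa1, the remaining member of that family, had 6 counts in all 10 libraries together, too few to be tested.

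**Figure D3:**
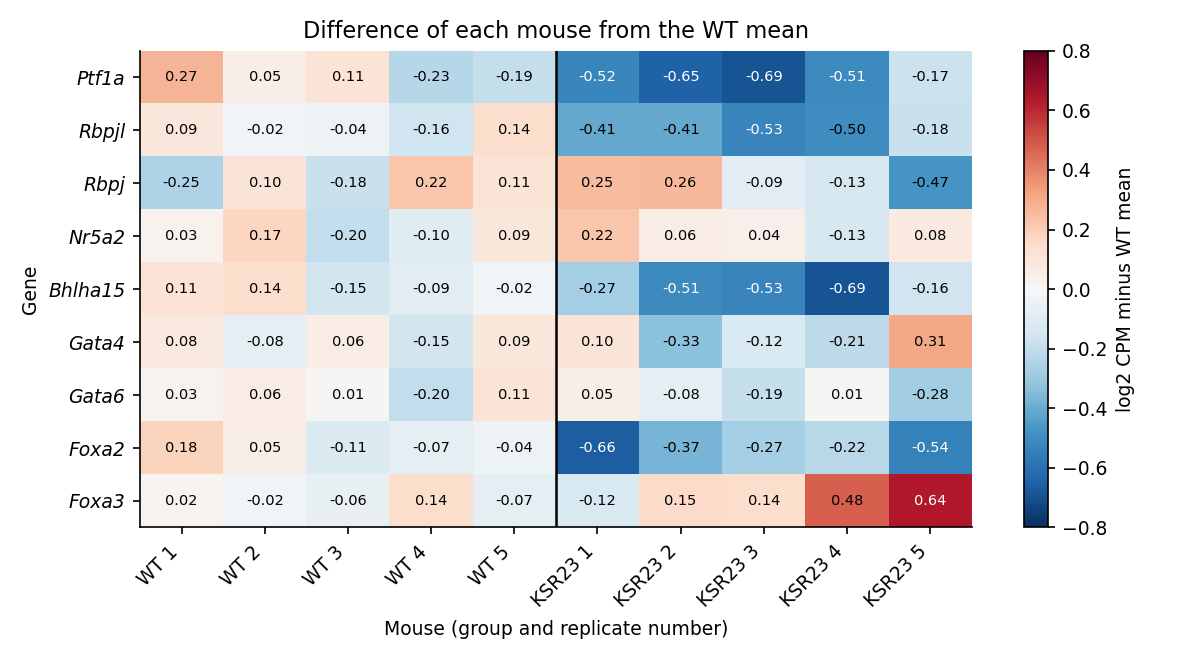
log2 CPM of each mouse minus the mean of the WT mice, for the 9 factor genes. Rows are genes, columns are mice, and the numbers in the cells are the differences. Ptf1a, Rbpjl and Bhlha15 are nearest to the WT mean in KSR23 replicate 5, at -0.17, -0.18 and -0.16, where Foxa3 is at 0.64 and Rbpj at -0.47.

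The mice of the KSR23 group did not shift evenly. KSR23 replicate 5 had the highest level among KSR23 mice for 5 of the 9 factors, Ptf1a, Rbpjl, Bhlha15, Gata4 and Foxa3, and the lowest for Rbpj and Gata6. In the other KSR23 mice, Ptf1a was 0.51 to 0.69 log2 units below the WT mean, and in replicate 5 it was 0.17 below. The summed level of 7 myeloid marker genes was 269 CPM in KSR23 replicate 5, inside the WT range of 221 to 297 CPM, and 420 to 609 CPM in the other KSR23 mice. Lyz2, at 142 CPM in replicate 5, made up the most of that sum. S100a8, S100a9 and Cd68 were at 17.5, 16.6 and 15.9 CPM there, above the highest WT values of 8.41, 6.67 and 15.3 CPM. Lyz2, Csf1r, Itgam and Adgre1 were inside their WT ranges in that mouse. The summed acinar markers were at 185000 CPM in replicate 5, at 150000 to 175000 CPM in the other KSR23 mice and at 201000 to 225000 CPM in WT mice. The summed duct markers of replicate 5, at 2780 CPM, lay among those of the other KSR23 mice, at 2700 to 2960 CPM. The part of these markers in the result was not tested. Without KSR23 replicate 5 the log2 FC was -0.60 for Ptf1a, -0.46 for Rbpjl, -0.50 for Bhlha15 and -0.38 for Foxa2.

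Likeness of pattern was measured as the root mean square difference in log2 CPM over the 10 libraries after the mean of each gene was subtracted, and is given as a description. Among the 36 pairs of the 9 factors, Rbpjl and Bhlha15 were most alike, with 0.116, followed by Ptf1a and Rbpjl with 0.157. The least alike were Ptf1a and Rbpj, with 0.461. The measure includes the difference between the groups, so genes with a similar log2 FC lie nearer to each other. Ptf1a and Rbpj had log2 FC of -0.50 and -0.02. Over the 9738 other genes with a mean of at least 5 CPM, the median difference from Rbpjl was 0.287. The nearest to Rbpjl were 1700052N19Rik (0.0810), Idh2 (0.0819) and Edem2 (0.0883), and the nearest to Bhlha15 were Cthrc1 (0.111), Pecr (0.112) and 1700052N19Rik (0.113). Ptf1a was nearest to B3galt6 (0.122), Nudt22 (0.128) and Coa3 (0.130), and Foxa2 to Gpx8 (0.0844), Pbdc1 (0.0881) and Wdr83 (0.0884).

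Ratios of related genes within a library do not depend on how libraries are scaled, and 3 pairs were compared. The log2 ratio of Foxa3 to Foxa2 was 0.55, 0.64, 0.76, 0.91 and 0.68 in WT mice and 1.25, 1.23, 1.12, 1.40 and 1.89 in KSR23 mice. It lay above the WT range in 5 of 5 KSR23 mice, and the means differed by 0.67 (two-sided exact permutation test, p = 0.00794, adjusted p = 0.0238 over 3 pairs). This ratio combines the Foxa2 and Foxa3 values given above and is not separate support for them. The genes were chosen with earlier results known, which the adjustment over 3 pairs does not cover. The log2 ratio of Rbpjl to Rbpj was 5.52, 5.05, 5.31, 4.79 and 5.21 in WT mice and 4.51, 4.51, 4.74, 4.80 and 5.48 in KSR23 mice. Its mean difference was -0.37 and missed the threshold (two-sided exact permutation test, p = 0.119, adjusted p = 0.179). The difference was -0.54 without KSR23 replicate 5, with an exact permutation p of 0.0238. The log2 ratio of Gata4 to Gata6 averaged 1.62 ± 0.0828 for WT and 1.67 ± 0.339 for KSR23 mice, with KSR23 replicate 5 at 2.21 (exact permutation test, p = 0.833, adjusted p = 0.833).

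**Figure D4:**
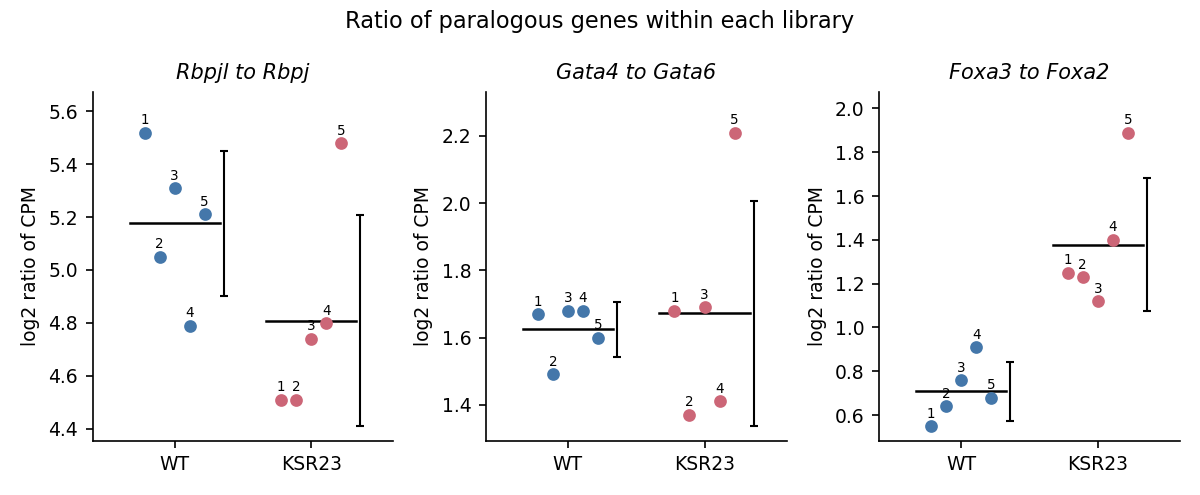
log2 ratio of CPM of paralogous genes within each library. Points are mice labelled by replicate number, horizontal lines are group means and bars are the SD of 5 mice. Foxa3 to Foxa2 lies between 0.55 and 0.91 in WT mice and between 1.12 and 1.89 in KSR23 mice, and KSR23 replicate 5 stands apart from the other KSR23 mice in all 3 panels.

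Among partners and antagonists of the factors, Xbp1, Nr0b2, Id1, Id2 and Tcf3 rose. Of 13 listed partner genes, 12 had enough counts, and 5 were called higher and 1 lower, with a median log2 FC of -0.01. Of all genes tested, 16.2% were called higher and 14.8% lower, with a median of -0.00562. This list and those below were chosen with earlier results of these data known. Xbp1, a transcription factor of the unfolded protein response that acts upstream of Bhlha15, rose from 737 ± 28.6 to 1380 ± 179 CPM (SD, n = 5 each), a log2 FC of 0.91 (edgeR, adjusted p = 4.70e-07). Nr0b2, which encodes SHP, a target gene and repressor of the Nr5a2 product, rose from 20.7 ± 0.998 to 34.8 ± 8.08 CPM (log2 FC 0.76, adjusted p = 0.000119), while Nr5a2 was not called. For both genes the groups did not overlap.

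The ID proteins lack a DNA-binding domain and sequester E proteins, the partners of PTF1A and MIST1. Id2 rose from 98.8 ± 7.86 to 143 ± 10.6 CPM without overlap (log2 FC 0.54, edgeR, adjusted p = 1.50e-05), and Id1 rose with overlap (log2 FC 0.40, adjusted p = 0.0108). Id3 and Id4 had log2 FC of 0.05 and -0.16 and were not called. Among the E protein genes, Tcf3 had a log2 FC of 0.26 (adjusted p = 0.0285), which lost its call without WT replicate 2, 3 or 4 (0.25, 0.23 and 0.20) or KSR23 replicate 3 (0.21), and Tcf12 and Tcf4 were at -0.14 and -0.07 without a call. Zfpm2, a cofactor of GATA proteins, was the gene called lower, with a log2 FC of -0.54 (adjusted p = 0.0233), and it lost its call without WT replicate 2 (-0.38) or KSR23 replicate 5 (-0.44) and with library totals alone (-0.45).

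Of 14 reported factors of pancreatic progenitors and ducts, 7 were called higher, 7 were not called and none was called lower. Of all genes tested, 16.2% were called higher. The 14 factors had a median log2 FC of 0.23, against -0.00562 for all genes tested. Klf5, an epithelial factor, had the largest log2 FC among them, 1.47 (adjusted p = 2.73e-07). The duct factors Sox9 and Hes1 had log2 FC of 0.86 and 0.79 (edgeR, adjusted p = 1.03e-05 and 1.86e-06), and Hes1 is also a target of Notch and Rbpj. Onecut2, Mnx1, Glis3 and Klf4 made up the remainder of those called, with log2 FC of 0.90, 1.16, 0.68 and 0.40. Glis3 lost its call without WT replicate 2, 3 or 4 (0.54, 0.69 and 0.62) or KSR23 replicate 1 or 5 (0.54 and 0.65), and Mnx1, at 5 to 62 counts, without KSR23 replicate 4 or 5 (1.01 and 1.04). Pdx1, Hnf4a and Prox1 were not called, with log2 FC of 0.03, 0.06 and -0.21, although Prox1 was called lower without KSR23 replicate 1 (-0.38). Of 8 listed duct markers that are not transcription factors, 7 were called higher. Krt19 was not (118 ± 9.17 CPM in WT and 115 ± 11.6 CPM in KSR23 mice, log2 FC -0.05, edgeR, adjusted p = 0.664). The summed level of the 8 lay between 1680 and 1800 CPM in the WT group and between 2700 and 2960 CPM in the KSR23 group. Spp1 and Krt18 made up the most of it, with means of 1310 and 558 CPM in KSR23 mice. Which cells made these RNAs was not tested.

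Target genes of the factors were mostly lower. Of 14 listed PTF1 targets, 12 were called lower, 1 higher and 1 was not called, where 14.8% of all genes tested were called lower. The PTF1 targets had a median log2 FC of -1.16. They ranged from -2.90 for Ctrl and -2.53 for Cela1, both encoding serine proteases, to -0.45 for the ribonuclease gene Rnase1 among those called lower. Ctrb1, the gene among the 12 PTF1 targets in the promoter table that held a paired TGGGAA and CANNTG, was not called (log2 FC -0.13, edgeR, adjusted p = 0.371), and the trypsinogen gene Prss2 was higher (0.37, adjusted p = 0.0181). The call of Prss2 was lost without WT replicate 2 or 5 (0.36 and 0.32) and with the replicate number as a block (0.37, adjusted p = 0.0826). Amy2b and Prss2 belong to families of near-identical genes, whose shared reads were not counted, and their values are uncertain for that reason. Of 5 listed MIST1 targets, 4 were called lower and none higher. Atp2c2, a Golgi calcium pump gene, had a log2 FC of -1.46 (adjusted p = 2.73e-07), and the small GTPase gene Rab26 one of -0.57 (adjusted p = 6.16e-05). Copz2 was at -0.40 (adjusted p = 0.000669) and Rab3d at -0.26 (adjusted p = 0.0104; -0.17 and not called with library totals alone), and Gjb1 was not called (-0.08, adjusted p = 0.529).

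**Figure D5:**
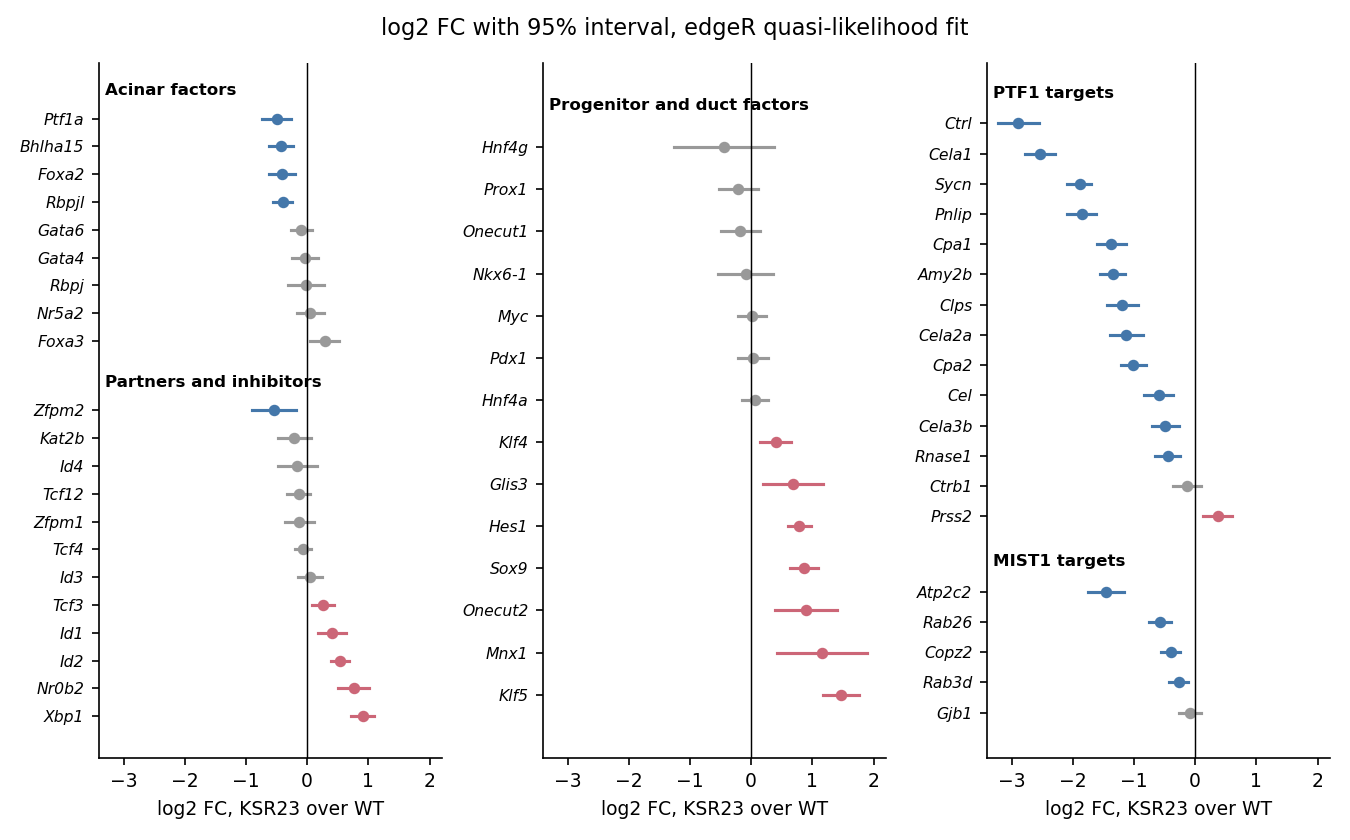
log2 FC of KSR23 over WT mice with unadjusted 95% intervals, fitted with edgeR, for the 9 factors and the reported partner, progenitor, duct and target genes. Blue genes were called lower, red genes higher and grey genes were not called. The 4 factors called lower lie between -0.50 and -0.40, and PTF1 targets reach -2.90.

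Several factors are made in more than one pancreatic cell type, Foxa2 in islets and ducts as well as in acinar cells, and marker genes of these cells moved too. Of 8 islet markers, 6 were called lower and 1 higher, where 14.8% of all genes tested were called lower and 16.2% higher. The summed level of the 8 islet markers was 8110 to 11400 CPM in the WT group and 5000 to 6300 CPM in the KSR23 group, without overlap. Ins2 and Gcg made up the most of that sum, with means of 4210 and 3400 CPM in WT mice. Ppy was the islet marker called higher (log2 FC 0.95, from 46.5 to 90.3 CPM, with overlap), and Neurod1 was not called (0.20). Ins1 lost its call without WT replicate 1 or 4 or KSR23 replicate 1 or 2 (-0.35, -0.30, -0.34 and -0.33), and Chga without KSR23 replicate 2 or 5 (-0.28 each). Of 7 acinar markers, 5 were called lower and 1 higher, from a sum of 201000 to 225000 CPM to one of 150000 to 185000 CPM. All 7 acinar markers are also among the PTF1 targets above, so they are not a separate set of genes. All 7 myeloid markers were called higher. Stromal, mesothelial and endothelial markers overlapped in sum between the groups, with 1 of 6, 1 of 4 and 1 of 4 called lower and 1, 0 and 1 called higher. The mesothelial gene called lower, Upk3b, lost its call without any 1 of 6 mice (WT replicates 1 and 2 and KSR23 replicates 1, 3, 4 and 5, at -0.25 to -0.21), and Lrrn4 was called lower without WT replicate 4 (-0.38) or KSR23 replicate 2 (-0.37). Of 6 lymphoid markers, 3 were tested and 1 was called lower, at a sum of 2.59 to 7.38 CPM. The gene called lower was Cd3e, a T cell receptor subunit gene (log2 FC -1.50, from 4.01 ± 0.657 to 1.45 ± 0.481 CPM), whereas its partner Cd3d, too low to be tested, lay at 0.0686 to 0.175 CPM in WT and at 0.323 to 0.615 CPM in KSR23 mice, from 2 to 30 counts. Of 5 gut markers, 2 were tested and both were called higher, but both calls were lost when certain single mice were left out, an alternative chosen after seeing the data. Apoa4 was at 12.0 CPM in KSR23 replicate 2, at 0.161 to 0.629 CPM in the other KSR23 mice and at 0.322 to 0.583 CPM in WT mice, and its log2 FC went from 2.56 to -0.22 without that mouse. Vil1 (log2 FC 0.41) lost its call without WT replicate 1, 2 or 4 or KSR23 replicate 3 or 4 (0.41, 0.34, 0.40, 0.36 and 0.33). The summed gut markers were at 21.1 CPM in KSR23 replicate 2, at 7.39 to 10.7 CPM in the other KSR23 mice and at 5.63 to 7.78 CPM in WT mice. The gut factor Cdx2 had 3 counts in all, each of them in KSR23 replicate 2. Fabp2 had 55 counts in that mouse and 1 to 8 in each other mouse. Lct was highest in KSR23 replicate 5, at 18 counts against 10 in replicate 2. Cdx2 and the T cell gene Cd8a were at 0 in every WT library, and Cd8a had 11 counts in all. The part of these cell types in the falls of the 4 factors was not tested.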

How the data were processed

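The authors aligned single-end 75 bp reads of oligo-dT primed, PCR-amplified cDNA (SMART-Seq v4, Nextera XT) to mm10 with TopHat 2.1.0, and the deposited values are raw counts of unique alignments per gene from htseq-count 0.6.1p1. The annotation and strand setting are not given in the sources used here. PCR copies cannot be told apart, so the floor of 3 counts, at most 0.179 CPM, covers counting error only. Tallies of alignments outside genes (2.69% to 3.28%), ambiguous (0.490% to 0.653%) or not unique (38.5% to 53.7%) were kept out of all totals.

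Of 24062 genes, the 13882 whose count reached 5 in all libraries were scaled by TMM and compared with the quasi-likelihood F test of edgeR 4.0.16 in R 4.3.3, with Benjamini-Hochberg adjustment over all of them. The paper names a likelihood ratio test, which was an alternative, as was DESeq2 1.42.0. Standard errors are the log2 FC divided by the square root of F. log2 CPM used a prior count of 2. Exact permutation tests ran over all 252 splits. Code was tested on simulated data. Positions and exon lengths are from GENCODE M21 (GRCm38, the assembly of mm10), and promoters from RefSeq. The 9 genes and all lists were chosen with earlier results of these data known. Of the progenitor and duct list, 2 genes are not reported here, for a reason unrelated to their values, and its counts and median cover the other 14. Named genes are the 9 factors, listed genes, and for each called factor the 3 genes of most like pattern.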

Additional observations from a re-analysis of the deposited data

How the results depend on the processing

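Each gene was recomputed under 18 settings: RLE factors, library size alone, TMM without the 50 highest genes, the likelihood ratio test, DESeq2, no filter, filterByExpr, the replicate block, and each of 10 mice left out. Ptf1a, Rbpjl, Bhlha15 and Foxa2 were called lower in all 18, with log2 FC from -0.60 to -0.42, -0.46 to -0.31, -0.50 to -0.34 and -0.46 to -0.32 and adjusted p up to 0.00768, 0.00422, 0.0116 and 0.031. None of the 18 used alignments that were not unique for the scaling. With library size alone, 1164 genes were lower and 3072 higher, against 2049 and 2250, and the median of all tested genes moved to 0.087. Under it the log2 FC of Rbpj was 0.07, Gata4 0.06, Tcf4 0.02, Gjb1 0.009 and Foxa3 0.37, so that 1 of the 9 factors was called higher and 0 partner genes lower. With single mice left out, the log2 FC ran from -0.11 to 0.08 for Rbpj, -0.13 to 0.03 for Gata4, 0.18 to 0.37 for Foxa3, -0.0048 to 0.14 for Id3, -0.04 to 0.10 for Pdx1, -0.05 to 0.10 for Hnf4a, -0.21 to 0.02 for Nkx6-1 and -0.07 to 0.10 for Myc. Likewise, 0 to 1 of the 9 factors and 0 to 1 PTF1 targets were called higher, and 0 to 1 partner genes and 0 to 1 progenitor and duct factors lower. The difference in log2 ratio ran from -0.54 to -0.29 for Rbpjl to Rbpj and from -0.09 to 0.12 for Gata4 to Gata6, and a prior count of 0.5 left the 3 ratios at -0.37, 0.05 and 0.67. The causes of these shifts were not tested. Replicate numbers name different mice, and deviations of same-numbered mice correlated between -0.111 and 0.0661, with number 2 alone matching its own number best, so the numbers were not taken as a pairing. With the replicate block, 3749 genes were called against 4299, 0 PTF1 targets were called higher, and the 4 factors stayed lower. Mnx1 had 5 to 62 counts per library, the fewest among the called genes named here. No value of the 9 factors passed the Dixon critical value of 0.71 for distance from its group of 5 mice. KSR23 replicate 5 was still the highest KSR23 mouse for 5 of the 9 factors, as given above.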
